A study of Homo sapiens with 10 samples.

Results

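LNCaP prostate cancer cells selected with the EOS reporter were compared with LNCaP cells that carried a PGK control vector. LNCaP is an established prostate cancer line that grows in response to androgen and was derived from a lymph node metastasis. The EOS vector places GFP and a puromycin resistance gene under enhancers of OCT4 and SOX2, transcription factors of pluripotent stem cells, and in the control vector the PGK promoter, active in most cell types, drives both genes. Both vectors thus carry GFP and puromycin resistance. The EOS cells were grown for a few weeks in puromycin, per the labels' protocols, which describe the survivors as enriched for OCT4 expression. The labels do not say whether the PGK cells received puromycin, whether a group was a clone or a pool, or whether the arrays of a group were separate cultures. The spread behind each p-value is therefore that of the arrays and can be technical only. The 4 arrays of the comparison, PGK 1, PGK 2, EOS 1 and EOS 2, were chosen by their titles from the 10 arrays of the series. The LNCaP array after ribavirin was left out of every difference. The arrays of DU145, another prostate cancer line, entered the estimate of the spread and the comparison between the lines. All 10 arrays also entered the filter on low values and the choice of the probe set that stands for each gene.

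Cells short of oxygen stabilise hypoxia-inducible factors, which bind a short DNA core and switch on genes of glycolysis, iron and oxygen sensing and blood vessel growth. Ribosome production takes place in the nucleolus, where rRNA is transcribed, cut, modified and assembled with proteins, and it tracks the growth rate of cells. Class I molecules display peptides from inside the cell to T cells, and interferons raise their level. In prostate cancer, neuroendocrine genes such as ENO2 are followed because some tumours lose luminal features under treatment.

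Levels are given as log2 of the scaled intensity plus 16, so that the floor is 4, and a difference is EOS minus PGK on that scale. Pair 1 is EOS 1 minus PGK 1 and pair 2 is EOS 2 minus PGK 2. These log2 differences understate the change of dim genes. A value after ± is a standard error from the spread that limma shares over all groups, with 2 arrays in each EOS and PGK group. The fit behind it ignores the array number, so it includes differences between arrays numbered 1 and 2. In a fit with the number as a block it was 0.34 in place of 0.51 for ENO2. For DCLK2 it was 0.56 in place of 0.51. Precision is limited by the number of arrays.

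The 4 arrays differed most by their number and not by their vector. Principal component 1 held 56.6% of their variance and placed the arrays numbered 1 at 38.8 and 42.4 and those numbered 2 at -40.7 and -40.5. The deposited trimmed mean was 500 on the arrays numbered 1 against 97.26 for PGK 2 and 98.57 for EOS 2. The ratio between the 3' and the 5' probe set of ACTB, which tracks how far labelled RNA extends towards the 5' end, was 1.511 in PGK 1, 1.377 in EOS 1, 3.993 in PGK 2 and 3.904 in EOS 2. It thus differed between the numbers and little between EOS and PGK of the same number. The line matched its label: the 8 luminal prostate markers with a probe set, KLK3, KLK2, KRT8 and KRT18 among them, lay above the array median on each of the 4 arrays.

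Of 14313 genes limma called 0 between EOS and PGK at an adjusted p of 0.05 (0%). An unadjusted limma p under 0.05 was reached by 596, with 438 higher (3.06%) and 158 lower (1.1%). This is fewer than a threshold of 0.05 passes when no gene differs. The smallest adjusted p was 0.999. With the array number as a replicate block the count was also 0 (0%). In that fit 1297 genes had an unadjusted limma p under 0.05, more than the threshold passes when no gene differs. Genes are not independent, and neither excess nor shortfall was tested. The smallest adjusted limma p with the block was 0.118, that of ENO2 and AKAP12. With 2 arrays a side, an exact permutation test (two-sided) of any gene has p = 0.333 as its smallest value. What follows therefore describes genes and lists by their values, and no single difference passed a test over all genes.

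The pairs agreed weakly. EOS was higher in both pairs for 4708 genes (32.9%) and lower in both for 3274 (22.9%), and the remaining 6331 genes differed in sign or had no difference in a pair. The EOS arrays both lay above the PGK arrays for 2581 genes (18%) and both below for 1523 (10.6%). Such separation is the outcome to which the exact permutation test gives its p of 0.333. Genes named below for large differences in both pairs mostly have separate groups because of that choice. Their separation describes the arrays and is not further evidence. Across genes, which are not independent replicates, the differences of the pairs correlated with r = 0.08. The correlation was 0.00 for the 1923 genes with a mean level under 6 and 0.24 for the 1633 genes at 12 or more. A difference of at least 1 in pair 1 was found for 546 genes higher and 255 lower in EOS, and in pair 2 for 1112 higher and 591 lower. At least 1 in both pairs was reached by 123 genes higher in EOS (0.859%) and by 25 lower (0.175%). After quantile normalization these counts were 88 and 35. Of the 123 and 25 genes, 11 and 0 had a mean level of at least 8, a limit chosen after the data were seen.

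**Figure D1:**
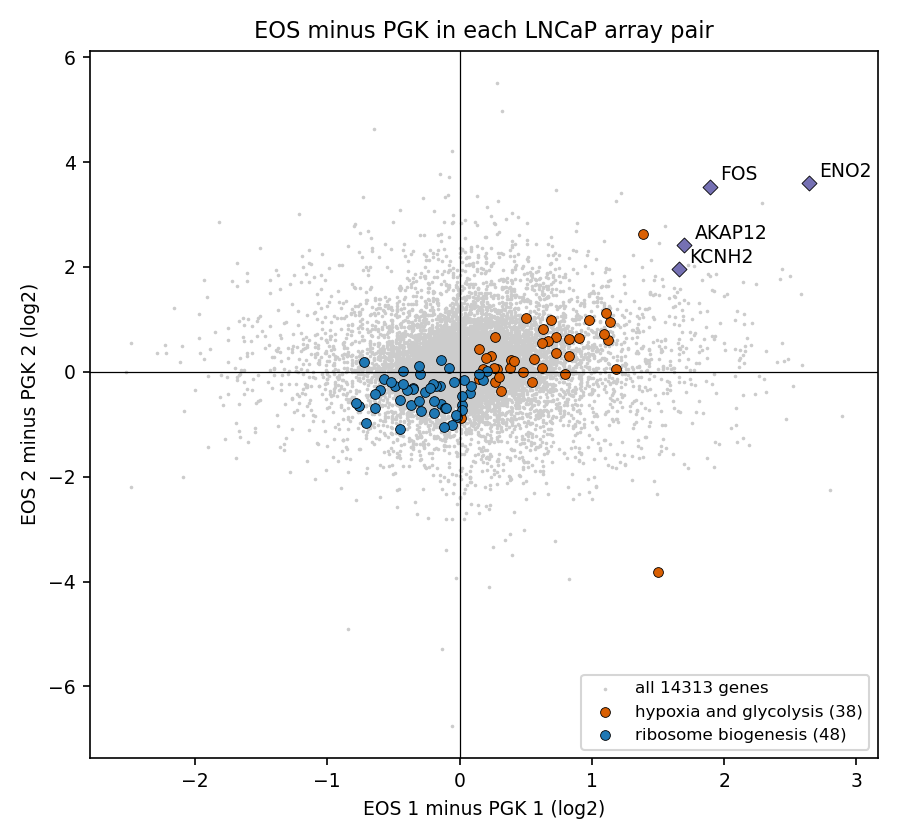
Each point is 1 of the 14313 genes, with EOS 1 minus PGK 1 on the horizontal axis and EOS 2 minus PGK 2 on the vertical axis, both as log2 differences. Genes of hypoxia and glycolysis (38, orange) lie mostly to the upper right and genes of ribosome biogenesis (48, blue) mostly to the lower left, while ENO2, FOS, AKAP12 and KCNH2 (diamonds) stand at 1.66 or more in both pairs.

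The gene with the largest difference shared by both pairs was ENO2, the neuronal enolase of glycolysis, which is used as a neuroendocrine marker. Its level was 7.29 in PGK 1 and 5.86 in PGK 2, against 9.94 in EOS 1 and 9.46 in EOS 2. Both EOS arrays lay far above both PGK arrays, and the mean difference was 3.12 ± 0.51, or 8.69-fold. PGK 2 lay below its array median of 6.12, so the size depends on the floor. The difference was 3.38 with a pseudocount of 1 and 2.57 with 64. ENO2 had 0 other probe sets to compare. AKAP12, a scaffold protein that anchors protein kinase A and is known as a tumour suppressor in prostate cancer, had levels of 8.95 and 7.06 in PGK 1 and 2 and 10.65 and 9.47 in EOS 1 and 2. The groups did not overlap, and the difference was 2.06 ± 0.58. All 4 other probe sets of AKAP12 had the same sign, from 0.36 to 2.45. KCNH2, the potassium channel that repolarises heart muscle, stood at 7.69 and 7.45 in PGK and at 9.35 and 9.41 in EOS. The arrays of each group were close to each other and the groups were apart, by 1.81 ± 0.33, with a further probe set at 1.23.

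Several brighter genes higher in EOS in both pairs are given here, chosen after their values were seen. RASD1, a small GTPase induced by glucocorticoids, had levels of 7.41 and 7.61 in PGK and 8.92 and 10.06 in EOS. KISS1R, the receptor for kisspeptin, had 7.82 and 7.33 in PGK and 9.13 and 9.57 in EOS. GADD45B, a stress-induced growth arrest gene, had 8.53 and 8.92 in PGK and 9.61 and 10.55 in EOS. In each of these 3 genes the lower EOS array lay above the higher PGK array. MAFF, a small Maf transcription factor, overlapped instead, at 8.02 and 9.35 in PGK and 9.03 and 10.89 in EOS. RAB31, a GTPase of vesicle traffic, was at 9.04 and 9.23 in PGK and at 9.99 and 10.32 in EOS, a difference of 1.02 ± 0.22. FOXD1, a forkhead transcription factor, was at 8.43 and 7.75 in PGK and at 9.36 and 9.05 in EOS.

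Dim genes filled most of the other places among the 15 genes with the largest smaller-of-the-pairs difference in each direction. Of the 15 higher in EOS, 11 had both PGK arrays below the array median, and their mean levels over the 4 arrays ran from 5.46 to 9.03. They included FOS, the AP-1 subunit, which stood at 4.55 and 4.41 in PGK, near the floor, and at 6.44 and 7.94 in EOS. Its difference of 2.71 ± 0.53 became 4.15 with a pseudocount of 1 and was smaller with one of 64, so its size is not determined. The sodium channel subunit SCNN1G was at 6.35 and 4.08 in PGK and 8.64 and 7.30 in EOS. The myosin light chain MYL9, at 4.46 and 4.69 in PGK and 6.29 and 6.43 in EOS, had another probe set with the opposite sign, at -0.67. The others higher in EOS were DCLK2, FLJ33534, LOC105374690, BATF2, NEURL3, NCF4, ENTPD2, GTSF1L, TINAGL1 and COL13A1, at 1.86 to 2.17. DCLK2 moved from 2.09 to 0.24 with no filter on low values, and COL13A1 from 1.96 to 0.39 with the filter on the LNCaP mean. Of the 15 lower in EOS, 12 had both EOS arrays below the array median. Several were noncoding transcripts, and the largest difference was that of FLJ40288, at 6.99 and 6.73 in PGK against 4.51 and 4.54 in EOS. The histone gene H3C8 was at 7.51 and 6.89 in PGK and 5.43 and 4.89 in EOS. The other 13, from DIP2C-AS1 to GAL3ST4, differed by -1.67 to -0.99. Among these 15 lower genes C10orf143 alone had overlapping groups.

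**Figure D2:**
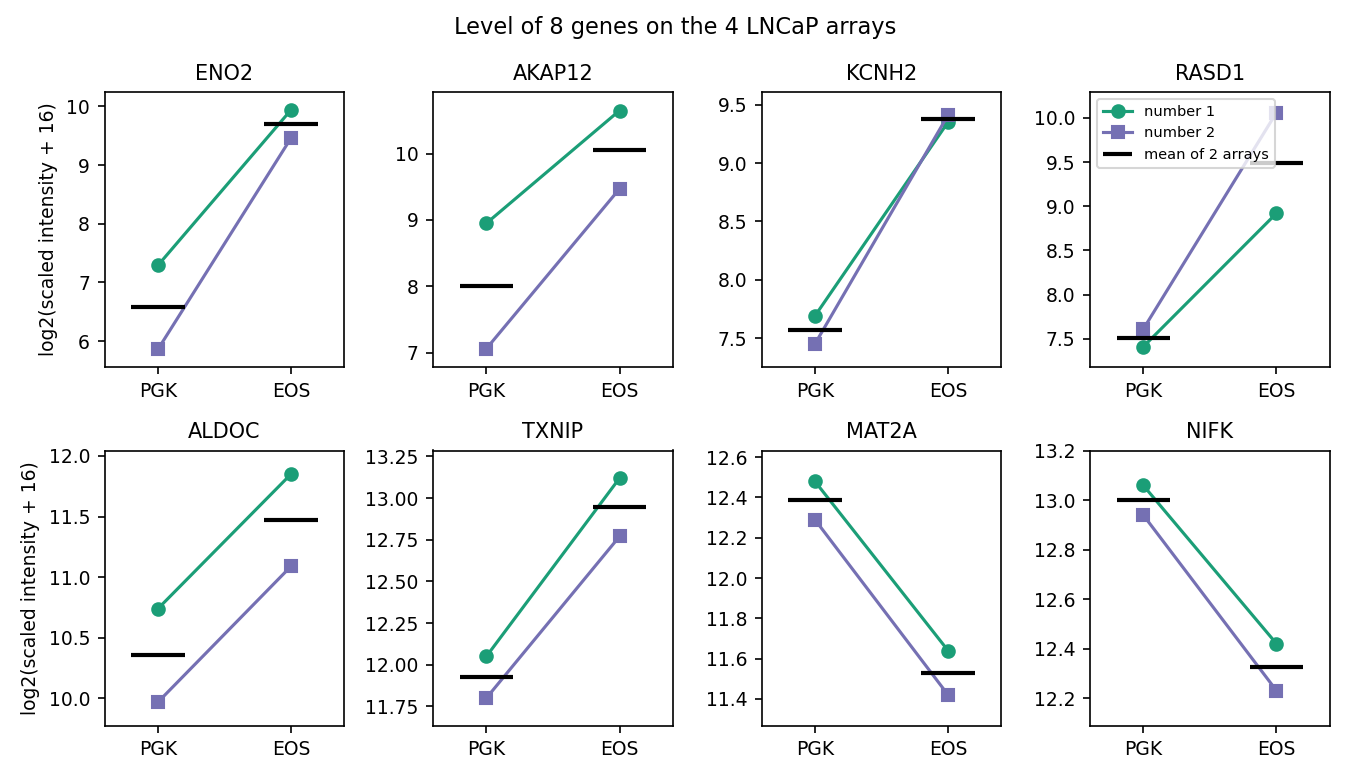
Points give the level of 8 genes, log2 of scaled intensity plus 16, on the PGK and EOS arrays numbered 1 (circles) and 2 (squares), lines join arrays of the same number and black bars are the mean of 2 arrays. In all 8 genes both EOS arrays lie on the same side of both PGK arrays, above them for ENO2, AKAP12, KCNH2, RASD1, ALDOC and TXNIP and below them for MAT2A and NIFK. Most of the 8 were named for large differences of the same sign in both pairs, so this separation is not further evidence. Over all genes 18% had both EOS arrays above both PGK arrays and 10.6% had both below. The vertical axes do not start at 0 and differ between panels.

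Most members of the list of hypoxia response and glycolysis genes were higher in the EOS cells. Of 38 tested members 29 were higher in both pairs and 0 were lower in both, where all genes gave 32.9% and 22.9%. The median was 0.59 in pair 1 and 0.28 in pair 2, against 0.04 and 0.05 over all genes. The EOS arrays both lay above the PGK arrays for 19 of the 38, against 18% of all genes. An unadjusted limma p under 0.05 was reached by 14 in the direction of higher in EOS, against 3.06% of all genes, and by 0 in the other direction, against 1.1%. The median over the mean of the pairs was 0.39, and 0.18 without EOS 1. In bulk RNA of this kind, more cells with a transcript and more transcript per cell cannot be told apart.

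The targets of oxygen sensing led this list. ANGPTL4, an inhibitor of lipoprotein lipase induced by hypoxia and fasting, had levels of 4.73 and 5.34 in PGK 1 and 2 and 6.13 and 7.96 in EOS 1 and 2. It is dim in PGK, so its difference of 2.01 ± 0.62 depends on the floor (2.72 with a pseudocount of 1, 1.20 with 64), and it was 1.33 with probe sets averaged. ALDOC, the brain form of the glycolytic enzyme aldolase, had levels of 10.74 and 9.97 in PGK and 11.85 and 11.09 in EOS. Each EOS array was above the PGK array of its number by 1.11 and 1.12, and the groups did not overlap. ANKRD37, an ankyrin repeat protein and a known target of hypoxia-inducible factor, had 11.06 and 11.28 in PGK and 12.03 and 12.26 in EOS. NDRG1, which responds to hypoxia, androgen and differentiation, had 12.88 and 12.67 in PGK and 14.02 and 13.61 in EOS, a difference of 1.04 ± 0.31. In ANKRD37 and NDRG1 the arrays of a group lay close together and the groups were separate.

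The further members below, and those of the other lists that the rule for named genes did not pick, were named after their values were seen. VEGFA, the main growth factor of blood vessels, was at 12.05 and 12.49 in PGK and 12.78 and 13.15 in EOS. PFKFB3, which makes the activator of phosphofructokinase, was at 9.99 and 10.19 in PGK and 10.89 and 10.85 in EOS, and PFKFB4, its relative, differed by 0.87 ± 0.33, or 0.23 with probe sets averaged. The mitophagy receptor BNIP3L was at 12.91 and 12.15 in PGK and 13.41 and 13.18 in EOS. VEGFA, PFKFB3 and BNIP3L showed no overlap between the groups. The collagen hydroxylases P4HA1 and P4HA2 differed by 0.54 ± 0.22 and 0.63 ± 0.20, the histone demethylase KDM3A by 0.59 ± 0.25, and BHLHE40, a transcriptional repressor, by 0.84 ± 0.32. Some members with a role in glycolysis, among the 9 of the 38 that were not higher in both pairs, are given next. ENO1, the main enolase of most cells, was at 14.62 and 14.93 in PGK and 14.93 and 14.58 in EOS, with pair differences of 0.31 and -0.36. LDHA gave 0.27 and -0.19, TPI1 0.30 and -0.09, GAPDH 0.15 and -0.13, and the glucose transporter SLC2A1 0.01 and -0.89. The muscle enolase ENO3 was at 8.16 and 7.73 in PGK and 8.47 and 8.04 in EOS, so within the enolases the 3 genes stood at 3.12 ± 0.51 for ENO2, 0.31 ± 0.30 for ENO3 and -0.03 ± 0.16 for ENO1. PLOD2, a collagen lysyl hydroxylase induced by hypoxia, went apart from the rest, at 10.04 and 12.26 in PGK and 11.54 and 8.45 in EOS.

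The promoters of ANGPTL4, ALDOC and ANKRD37, 3 of the leading members of this list, and that of ENO2, chosen after its values were seen, are printed to show where the core sequence of hypoxia response elements lies in the genes with the largest differences. Each is the 250 bases before the RefSeq start site (GRCh38.p14), 5′ to 3′ on the gene's strand, with ACGTG or GCGTG on either strand (read as CACGT or CACGC on the other) in capitals. The windows are chr19:8363905-8364154 on the plus strand for ANGPTL4, chr17:28576896-28577145 on the minus strand for ALDOC, chr4:185396591-185396840 on the plus strand for ANKRD37 and chr12:6914330-6914579 on the plus strand for ENO2.
ANGPTL4: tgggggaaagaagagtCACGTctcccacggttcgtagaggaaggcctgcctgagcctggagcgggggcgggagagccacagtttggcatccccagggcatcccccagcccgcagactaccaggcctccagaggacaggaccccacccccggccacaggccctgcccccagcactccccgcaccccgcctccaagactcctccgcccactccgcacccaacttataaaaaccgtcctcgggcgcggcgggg
ALDOC: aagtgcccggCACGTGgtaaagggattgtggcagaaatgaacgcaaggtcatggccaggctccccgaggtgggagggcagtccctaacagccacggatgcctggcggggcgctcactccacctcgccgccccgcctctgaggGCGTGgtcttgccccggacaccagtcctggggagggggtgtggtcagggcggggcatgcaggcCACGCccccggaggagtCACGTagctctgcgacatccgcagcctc
ANKRD37: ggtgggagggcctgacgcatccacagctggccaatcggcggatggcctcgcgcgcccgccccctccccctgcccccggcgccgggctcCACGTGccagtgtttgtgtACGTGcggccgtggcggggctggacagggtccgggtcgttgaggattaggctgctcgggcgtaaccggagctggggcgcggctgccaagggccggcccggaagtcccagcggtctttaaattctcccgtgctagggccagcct
ENO2: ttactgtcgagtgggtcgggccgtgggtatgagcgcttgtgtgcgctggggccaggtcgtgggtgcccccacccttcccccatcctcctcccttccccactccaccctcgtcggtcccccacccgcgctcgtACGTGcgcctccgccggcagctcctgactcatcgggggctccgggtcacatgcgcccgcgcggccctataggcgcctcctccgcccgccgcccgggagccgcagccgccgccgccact
ANGPTL4 held 1 match, which begins 234 bases before the start, and ENO2 held 1, which begins 118 bases before it. ALDOC held 5 matches and ANKRD37 held 3. In both of these genes 2 matches are the opposite strands of 1 CACGTG, which is also the E-box that MYC and USF proteins read. Such short letters are common: 43.2% of all 35116 windows of this length held at least 1. By gene, counting any of its windows, the share was 63% of the 11499 tested genes with a window and 29 of 34 list members with a window, 85.3%. Among the 25 of those members higher in EOS in both pairs it was 21, 84%, close to the share of the whole list. A match is a description of the letters and not of binding.

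**Figure D3:**
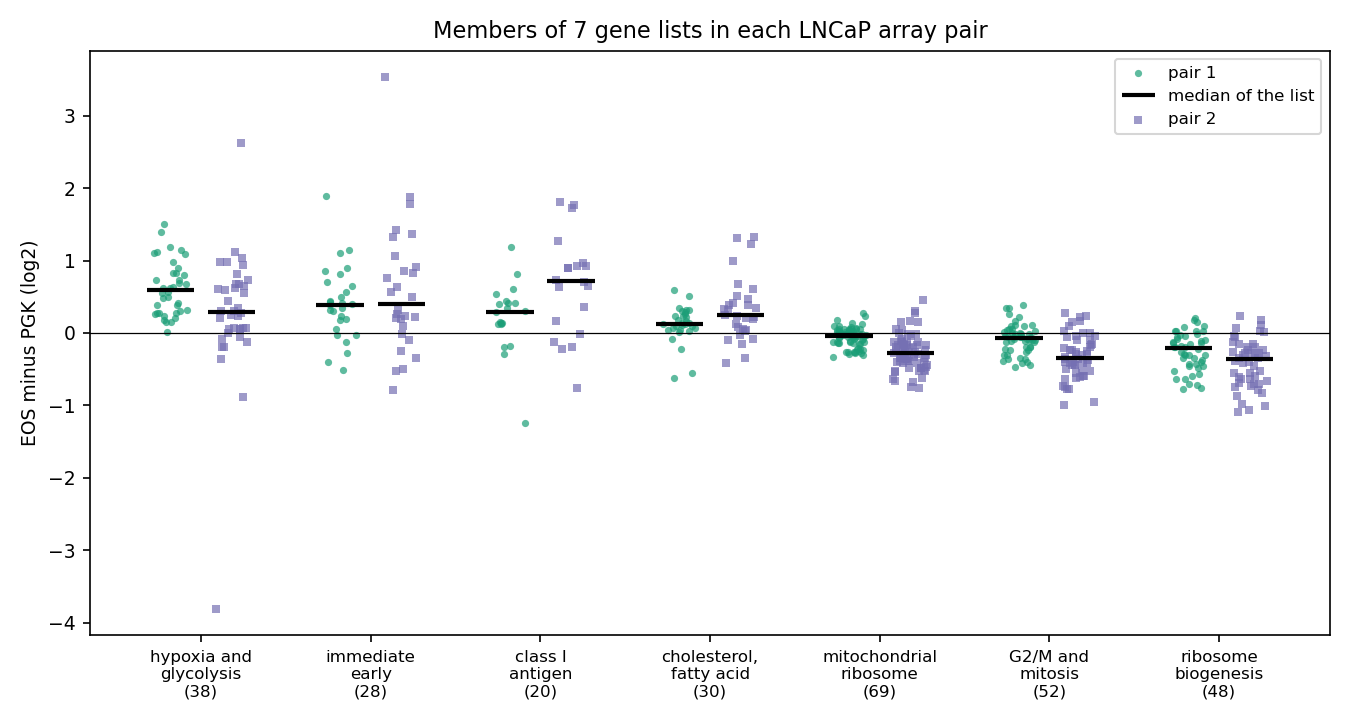
Each point is a tested member of 1 of 7 gene lists (numbers of members in brackets), with its EOS minus PGK log2 difference in pair 1 (circles) and pair 2 (squares) on the vertical axis, and black bars are list medians. The hypoxia list has medians of 0.59 and 0.28 and the ribosome biogenesis list -0.21 and -0.36; PLOD2, at -3.81 in pair 2, is the lowest point.

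Cell cycle inhibitors and genes of the resting state were in part higher in EOS cells. Of 18 tested members 9 were higher in both pairs (50%, against 32.9% of all genes) and 4 lower in both (22.2%, close to the 22.9% of all genes), with medians of 0.16 and 0.37. CDKN1C, the inhibitor p57 of cyclin-dependent kinases, had levels of 8.75 and 8.16 in PGK and 9.63 and 10.85 in EOS. TXNIP, which binds thioredoxin and limits glucose uptake, had 12.05 and 11.80 in PGK and 13.12 and 12.77 in EOS. CCNG2, a cyclin that is high in arrested cells, had 12.50 and 11.49 in PGK and 13.52 and 12.83 in EOS. For all 3 genes both EOS arrays were above both PGK arrays, and every other probe set (3, 2 and 4) had the same sign. BTG1, an antiproliferative gene, differed by 0.88 ± 0.21. CDKN1A, the inhibitor p21, gave 0.65 in pair 1 and -0.98 in pair 2. The retinoblastoma relative RBL1 and the cytoskeletal gene GAS2L3 were lower in both pairs, at -0.42 ± 0.27 and -0.43 ± 0.25. The median of this list over the mean of the pairs was 0.23, and 0.13 without PGK 1.

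Genes of the p53 response had medians of 0.22 and 0.16. Of 24 tested members 14 were higher in both pairs (58.3%, against 32.9% of all genes). Another 5 were lower in both (20.8%, close to the 22.9% of all genes). GDF15, a stress cytokine, was at 14.18 and 13.82 in PGK and 14.84 and 14.81 in EOS, and GADD45A, a growth arrest gene, at 10.51 and 10.42 in PGK and 11.36 and 10.99 in EOS. Both genes had separate groups. MDM2, the ligase that degrades p53, lay in the other direction at -0.36 ± 0.26, with 3 of its 6 other probe sets above 0.

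Genes for ribosome production were lower in the EOS cells. Of 48 tested members 34 were lower in both pairs and 1, FBL, was higher in both, where all genes gave 22.9% and 32.9%. The medians were -0.21 and -0.36. Both EOS arrays lay below both PGK arrays for 28 of the 48, against 10.6% of all genes. An unadjusted limma p under 0.05 was reached by 5 in the direction of lower in EOS, against 1.1% of all genes. In the other direction it was reached by 0, against 3.06%. The median over the mean of the pairs was -0.35, and lay between -0.35 and -0.27 with any 1 of the 4 arrays left out.

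The members with the largest differences act at several steps of ribosome assembly. RRS1, which brings the 5S particle into the large subunit, had levels of 11.95 and 11.60 in PGK 1 and 2 and 11.24 and 10.62 in EOS 1 and 2. NIFK, a nucleolar protein that binds the proliferation antigen Ki-67, had 13.06 and 12.94 in PGK and 12.42 and 12.23 in EOS, a difference of -0.67 ± 0.17. TSR1, needed to mature the small subunit, had 11.90 and 11.72 in PGK and 11.12 in both EOS arrays, while 1 of its 3 other probe sets was at 0.03. These 3 genes had no overlap, whereas RRP9, a component of the U3 particle that processes rRNA, came close to it, at 9.37 and 8.68 in PGK and 8.61 and 8.02 in EOS. NOP2, a methyltransferase of rRNA, was at 9.87 and 10.12 in PGK and 9.41 and 9.03 in EOS. NOP58, a core protein of the particles that guide rRNA methylation, differed by -0.51 ± 0.22. The RNA polymerase I genes POLR1B and POLR1C differed by -0.43 ± 0.22 and -0.36 ± 0.21, and RRN3, which recruits that polymerase, by -0.37 ± 0.19. FBL, the methyltransferase fibrillarin, gave 0.21 and 0.02 in the pairs, and NPM1, the abundant nucleolar chaperone, 0.18 and -0.15.

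MAT2A, which makes S-adenosylmethionine, the methyl donor of such reactions, was among the bright genes lowest in EOS. Its level was 12.48 and 12.29 in PGK and 11.64 and 11.42 in EOS, so that the groups were separate and both pairs gave nearly the same difference, -0.84 and -0.87. Its other probe set was at -0.63. The list of methionine and polyamine metabolism, with MAT2A counted, was mixed. Of 29 tested members 11 were higher in both pairs (37.9%, against 32.9% of all genes) and 9 lower (31%, against 22.9%). SAT1, which acetylates polyamines for export, was at 0.74 ± 0.29, and the methionine synthase genes MTR and MTRR were at -0.32 ± 0.18 and -0.49 ± 0.19. Further bright genes lower in EOS, named after their values were seen, were FAM111B, a protease linked to DNA replication, at -1.09 ± 0.44, and COA7, an assembly factor of the respiratory chain, at -0.85 ± 0.22. The nucleolar genes UTP14A, RRP15 and DHX37 were at -0.82 ± 0.29, -0.85 ± 0.30 and -0.67 ± 0.30.

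Genes of the mitochondrial ribosome were slightly lower. Of 69 tested members 42 were lower in both pairs (60.9%, against 22.9% of all genes) and 6 higher (8.7%, against 32.9%). The medians were -0.04 and -0.28. MRPS7, a small subunit protein, was at 12.47 and 12.52 in PGK and 12.18 and 12.19 in EOS. MRPL36, of the large subunit, was at 13.44 and 13.24 in PGK and 13.16 and 12.96 in EOS. Both genes had separate groups with differences of -0.31 ± 0.17 and -0.28 ± 0.21. The opposite was seen for MRPS18A at 0.21 ± 0.24 and MRPL11 at 0.17 ± 0.22. The list's median over the mean of the pairs was -0.17, and -0.10 without PGK 2 or without EOS 2.

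Genes of mitosis were lower mainly in pair 2. Of 52 tested members 33 were lower in both pairs (63.5%, against 22.9% of all genes) and 4 higher (7.69%, against 32.9%). The medians were -0.07 and -0.34. CCNB1, the mitotic cyclin B1, had levels of 13.01 and 13.42 in PGK and 12.58 and 12.68 in EOS. AURKA, a kinase of the spindle poles, had 11.54 and 12.21 in PGK and 11.14 and 11.44 in EOS. In both, each EOS array lay below each PGK array. The kinetochore genes CENPE and NDC80 were at -0.48 ± 0.23 and -0.40 ± 0.20. MKI67, which encodes the proliferation antigen Ki-67, was at 9.25 and 9.73 in PGK and 9.30 and 9.95 in EOS, a difference of 0.13 ± 0.26, and its 3 other probe sets lay between -0.03 and -0.00. Genes of DNA replication had no shared direction, with medians of 0.08 and -0.20 and 16 of 54 members lower in both pairs (29.6%) against 11 higher (20.4%). Single arrays moved both lists: over the mean of the pairs the mitosis median was -0.21, -0.04 without PGK 2 and -0.43 without PGK 1, and the replication median of -0.05 was 0.13 without PGK 2, -0.24 without PGK 1 and -0.12 without EOS 2.

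Histone genes, whose transcripts mostly lack a poly(A) tail, were lower, most of all in pair 2. Of 15 tested members 8 were lower in both pairs (53.3%, against 22.9% of all genes) and 2 higher (13.3%, against 32.9%). The medians were -0.14 and -0.67. The linker histone H1-2 was at 11.12 and 13.03 in PGK and 10.66 and 11.76 in EOS, and H2BC12 at 13.28 and 14.46 in PGK and 12.97 and 13.31 in EOS. In both genes PGK 2 stood highest of the 4 arrays. The list's median over the mean of the pairs was -0.36, and it was -0.63 without PGK 1, -0.01 without PGK 2 and -0.20 without EOS 1.

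Of 37 tested genes of amino acid supply and of the unfolded protein response, 21 were lower in both pairs and 4 higher. These are 56.8% and 10.8%, against 22.9% and 32.9% of all genes. The list's medians were -0.17 and -0.15. PSAT1, of serine synthesis, was at 13.96 and 14.22 in PGK and 13.58 and 13.87 in EOS. ATF5, a stress transcription factor, was at 8.80 and 9.09 in PGK and 8.34 and 8.51 in EOS, with 1 of its 2 other probe sets at 0.21. These 2 genes had separate groups. SLC7A5, the large amino acid transporter, was lower in both pairs, at -0.97 and -0.47, although its level was 8.52 and 7.54 on the arrays numbered 1 and 11.37 and 10.89 on those numbered 2. ATF6, a sensor of the endoplasmic reticulum, lay the other way at 0.69 ± 0.24, with a further probe set at -0.46. The median over the mean of the pairs was -0.19, -0.09 without EOS 1, -0.08 without PGK 2 and -0.29 without PGK 1.

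The cap-binding translation factors, through which ribosomes are recruited to mRNA, were lower in both pairs in 8 of 13 tested members and higher in 3. These are 61.5% and 23.1%, against 22.9% and 32.9% of all genes. EIF4G1, the scaffold of the cap-binding complex, was at 12.60 and 12.75 in PGK and 12.34 and 12.15 in EOS, with its other probe set at -0.53. EIF4E, the cap-binding protein itself, was at 12.26 and 12.48 in PGK and 11.98 and 12.28 in EOS, where EOS 2 overlapped PGK 1. Its 3 other probe sets ran from -0.32 to 0.26. MKNK2, a kinase that phosphorylates EIF4E, was at 0.30 ± 0.20. The list's median was -0.16, -0.08 without PGK 2 and -0.02 with all probe sets of a gene averaged.

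Class I antigen presentation genes were higher in the EOS cells. Of 20 tested members 12 were higher in both pairs (60%, against 32.9% of all genes) and 1, CD74, was lower (5%, against 22.9%). The medians were 0.30 and 0.72. HLA-C, a class I heavy chain, had levels of 12.74 and 12.52 in PGK and 13.28 and 13.41 in EOS, a difference of 0.72 ± 0.17. HLA-B had 11.51 and 11.41 in PGK and 12.11 and 12.68 in EOS. B2M, the light chain shared by all class I molecules, had 14.07 and 14.16 in PGK and 14.36 and 14.80 in EOS. All 3 had separate groups, and all other probe sets of HLA-B and HLA-C had the same sign. The HLA heavy chain genes are near-identical in sequence, so probe sets may read more than 1 of them and HLA-B, HLA-C, HLA-F and HLA-G are not independent. TAP1, a subunit of the peptide transporter, was at 9.16 and 8.44 in PGK and 9.56 and 10.17 in EOS, and PSME1, a proteasome activator, at 11.96 and 11.67 in PGK and 12.27 and 12.60 in EOS. CD74, the class II invariant chain, was at 6.12 and 6.85 in PGK and 4.86 and 6.09 in EOS. The median over the mean of the pairs was 0.54, and 0.21 without EOS 2.

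Of 32 tested interferon-stimulated genes 19 were higher in both pairs (59.4%, against 32.9% of all genes) and 3 lower (9.38%, against 22.9%). The medians were 0.32 and 0.31. ISG20, an exonuclease that acts on viral RNA, was at 9.09 and 9.20 in PGK and 9.83 and 10.25 in EOS. The membrane proteins IFITM2 and IFITM3, which block virus entry, were at 11.37 and 11.52 in PGK 1, 9.62 and 10.50 in PGK 2, 11.88 and 11.92 in EOS 1 and 12.46 and 12.91 in EOS 2. PGK 2 was the low array and EOS 2 the high one for both genes, so the pairs gave 0.51 and 2.84 for IFITM2. The antiviral genes MX1 and OASL went in opposite directions between the pairs. After quantile normalization 14 of the 32 were higher in both pairs, where all genes gave 29.3%. The list's median over the mean of the pairs, 0.24, was 0.14 after quantile normalization and 0.37 without EOS 1.

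AP-1 and immediate early genes, which answer growth factors and stress within minutes, were higher in both pairs in 15 of 28 tested members and lower in 0. These are 53.6% and 0%, against 32.9% and 22.9% of all genes. The list's medians were 0.39 and 0.41. KLF6, a zinc finger transcription factor, had levels of 9.06 and 8.71 in PGK and 9.56 and 10.07 in EOS, and its 4 other probe sets ran from 0.64 to 0.99. IER3, an early response gene that limits cell death, had 6.32 and 5.88 in PGK and 7.21 and 7.29 in EOS. ZFP36, which destabilises mRNA, had 8.20 and 7.70 in PGK and 8.58 and 9.02 in EOS. These 3 genes had separate groups, as had FOS. SPRY4, a feedback inhibitor of growth factor signalling, differed by 1.10 ± 0.41 and is dim in PGK, at 4.76 and 4.91. JUN, the partner of FOS in AP-1, gave 0.65 and -0.10 in the pairs, and MYC -0.03 and 0.24.

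Cholesterol and fatty acid synthesis genes were higher by small amounts. Of 30 tested members 21 were higher in both pairs (70%, against 32.9% of all genes) and 1, SQLE, was lower (3.33%, against 22.9%). The medians were 0.13 and 0.24. STARD4, a carrier of cholesterol, was at 9.57 and 8.48 in PGK and 10.16 and 9.80 in EOS. LSS, which closes the sterol rings, was at 10.45 and 10.27 in PGK and 10.75 and 10.87 in EOS. FASN, the fatty acid synthase, was at 11.15 and 10.73 in PGK and 11.41 and 11.12 in EOS, where EOS 2 overlapped PGK 1. SCD, the stearoyl desaturase, differed by 0.48 ± 0.49. MVK, a kinase of the mevalonate pathway, differed by 0.45 ± 0.25, with a further probe set at -0.31.

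Of 20 tested mesenchymal genes 13 were higher in both pairs (65%, against 32.9% of all genes) and 1 lower (5%, against 22.9%). The medians were 0.32 and 0.70. THY1, a surface glycoprotein, was at 4.43 and 4.37 in PGK and 6.59 and 5.48 in EOS, with another probe set at -0.71. MMP2, a matrix protease, was at 5.65 and 5.01 in PGK and 6.21 and 6.87 in EOS. COL6A1, a collagen, was at 9.75 and 10.15 in PGK and 10.29 and 10.65 in EOS. THY1 and MMP2 are dim in PGK, and VIM, the intermediate filament of mesenchymal cells, gave 1.17 and -0.56 in the pairs. TGFBI, a matrix protein, was the 1 member lower in both pairs, at -1.56 and -0.13. The summed intensity of the 9 fibroblast markers ran from 341 to 668 in PGK and from 753 to 921 in EOS, with 1 or 2 of 9 above the array median on any array, and its part in the list was not tested. COL1A1, which is in both lists, was at 8.68 and 7.52 in PGK and 9.16 and 9.39 in EOS, but its 3 other probe sets ran from -0.96 to 0.67 and averaging probe sets took its difference from 1.18 to 0.15. The list's median over the mean of the pairs was 0.59, 0.38 without EOS 2 and 0.34 with a pseudocount of 64. Leukocyte markers summed to 324 to 347 in PGK and 243 to 519 in EOS, and endothelial markers to 176 to 342 and 360 to 426.

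Of 20 tested neuroendocrine and neuronal genes, with ENO2 and KCNH2 among them, 8 were higher in both pairs (40%, against 32.9% of all genes), 0 were lower in both (against 22.9%) and 12 differed in sign, with medians of 0.26 and 0.44. TUBA1A, an alpha tubulin high in neurons, was at 7.60 and 8.46 in PGK and 9.68 and 9.45 in EOS, and the groups did not overlap. RTN2, a reticulon, was at 6.44 and 6.58 in PGK and 7.17 and 10.05 in EOS, so EOS 2 stood far above the rest. UCHL1, a neuronal deubiquitinase, gave -0.15 and 0.46, and NCAM1, a neural adhesion molecule, -0.14 and 0.43. The median over the mean of the pairs was 0.32, 0.57 without PGK 1 and 0.03 without PGK 2.

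Androgen-responsive luminal genes were higher in both pairs in 13 of 27 tested members (48.1%, against 32.9% of all genes) and lower in 7 (25.9%, close to the 22.9% of all genes). KLK3, which encodes prostate-specific antigen, was at 14.91 and 15.01 in PGK and 15.33 and 14.80 in EOS, so the groups overlapped. TMPRSS2, a protease induced by androgen, was at 12.67 and 11.79 in PGK and 13.20 and 13.15 in EOS, and its 3 other probe sets had the same sign. CAMKK2, a kinase upstream of AMPK, was at 10.83 and 9.87 in PGK and 11.33 and 10.49 in EOS. MAF, a transcription factor, gave 0.32 in pair 1 and 4.98 in pair 2, where PGK 2 stood at 5.76 and the other arrays at 10.74 to 11.51. EAF2 and ELL2, which take part in transcription elongation, were lower in both pairs, at -0.82 ± 0.37 and -0.36 ± 0.22. The list's median was 0.15 over the mean of the pairs, and with 1 array left out it was 0.55 without PGK 1, -0.01 without PGK 2, 0.04 without EOS 1 and 0.52 without EOS 2.

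Of the factors behind the reporter's enhancers, SOX2 had probe sets of its own and OCT4 did not. SOX2 was at 5.83 and 6.62 in PGK and 5.72 and 5.95 in EOS, lower in both pairs with overlapping groups, and its other probe set was at 0.24. It lay above the array median on 1 of the 4 arrays only, PGK 2, and whether it was detected was not tested. OCT4, the gene POU5F1, was read only by a probe set shared with its related sequences, at 6.66 and 7.56 in PGK and 7.67 and 7.17 in EOS, which cannot be assigned to OCT4 itself. Of 13 tested pluripotency genes 6 were higher in both pairs (46.2%) and 4 lower (30.8%), against 32.9% and 22.9% of all genes, with medians of -0.02 and 0.24. The median over the mean of the pairs, 0.28, was 0.10 without PGK 1, 0.15 without PGK 2, -0.05 without EOS 2 and 0.13 with probe sets averaged. TFCP2L1, a transcription factor of naive stem cells, was at 4.49 and 4.52 in PGK and 5.91 and 5.72 in EOS, with another probe set at -0.36. It lay above the array median on 0 of the 4 arrays. Its difference of 1.31 was 0.56 with a pseudocount of 64 and 0.48 with probe sets averaged. GDF3, a TGF-beta family ligand, was higher by 1.46 and 1.05 in the pairs, from 5.54 and 5.12 in PGK. KLF5, a zinc finger factor, was at 7.33 and 8.46 in PGK and 6.47 and 6.82 in EOS, and its difference of -1.25 was -0.74 with probe sets averaged. Of 16 surface markers used for tumour-initiating cells 5 were lower in both pairs (31.2%) and 3 higher (18.8%). CD44 was at 5.22 and 5.23 in PGK and 4.68 and 4.37 in EOS, close to the floor, and 3 of its 7 other probe sets had the same sign.

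**Figure D4:**
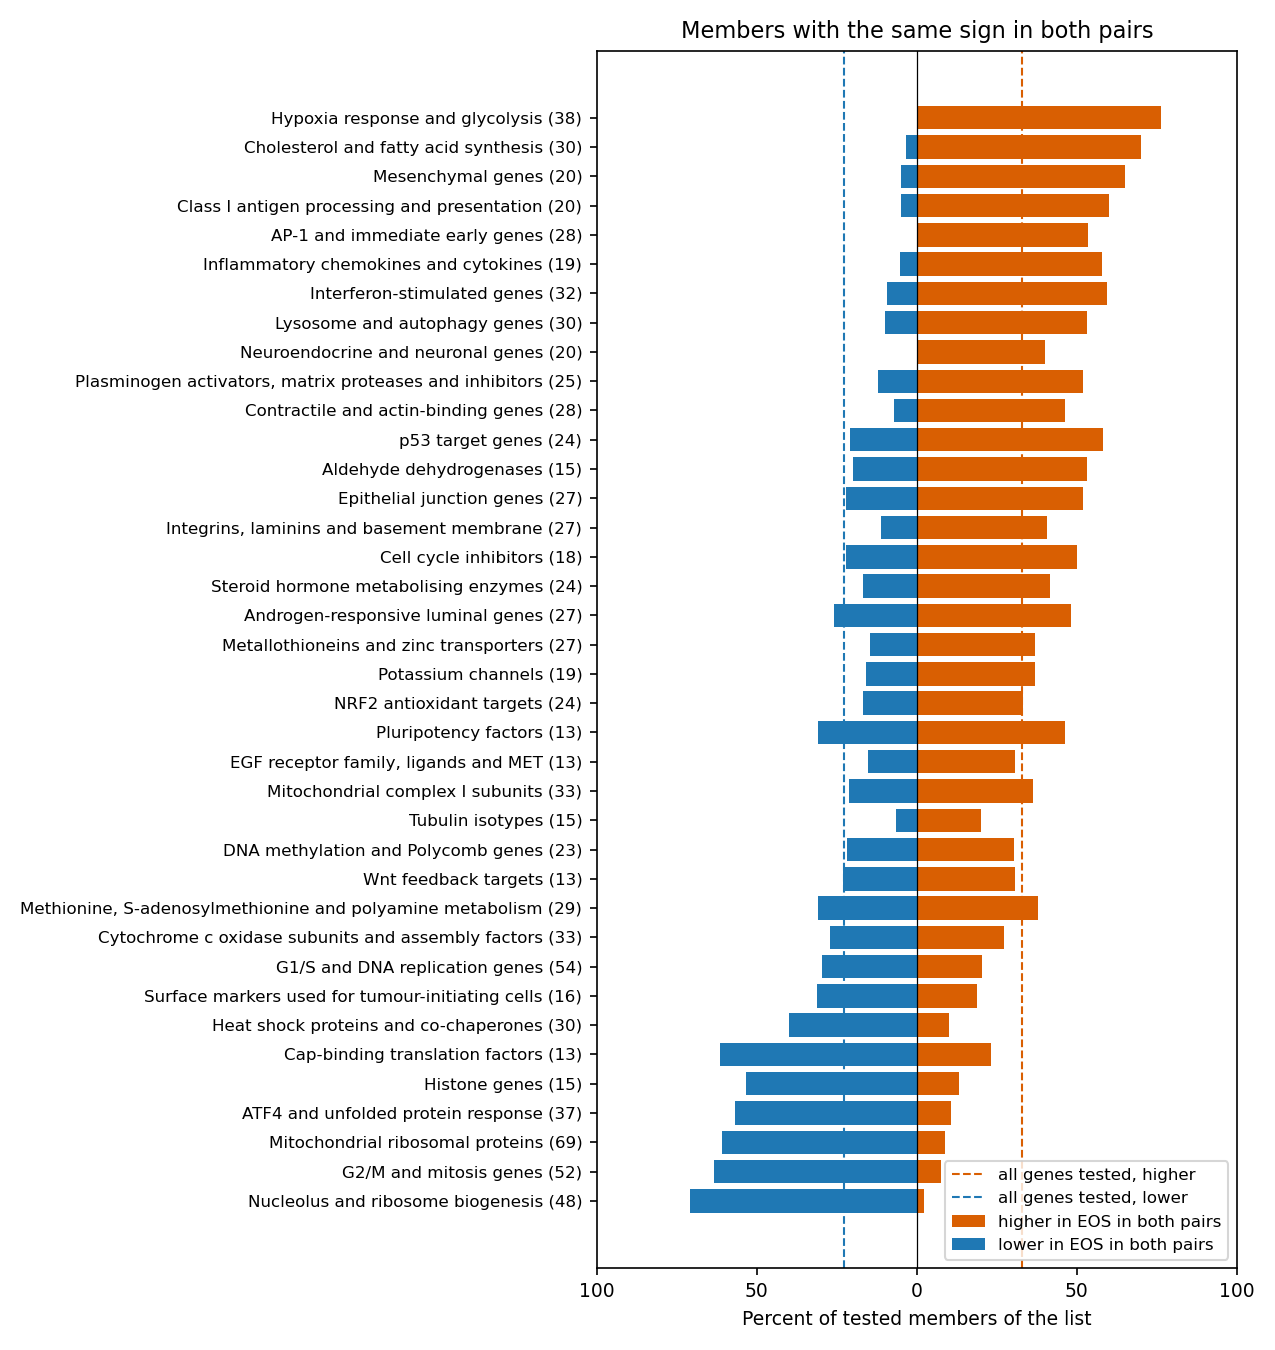
Bars give the percent of tested members of each list (number in brackets) that were higher in EOS in both LNCaP pairs (orange, to the right) or lower in both (blue, to the left), for lists with at least 10 tested members, and dashed lines give the same shares of all 14313 genes, 32.9% and 22.9%. The hypoxia list has the largest share higher, 76.3%, and the ribosome biogenesis list the largest share lower, 70.8%.

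The same lists had other medians in DU145 cells, which carried the same vectors. There the hypoxia list had medians of -0.20 in pair 1 and 0.32 in pair 2, the ribosome biogenesis list 0.29 and 0.02, the class I list -0.22 and -0.05 and the mitosis list 0.25 and 0.04. ENO2 gave -0.83 and 0.38 in the DU145 pairs, KCNH2 -1.09 and 0.07, TXNIP -2.08 and -0.36 and MAT2A 0.78 and -0.12. For the difference between the lines limma called 0 genes (0%, with 464 at an unadjusted p under 0.05, again fewer than that threshold passes when no gene differs). The replicate block gave 0 as well (1032 at an unadjusted limma p under 0.05, more than that threshold passes when no gene differs). The difference between the lines in EOS minus PGK was 3.34 for ENO2, 2.32 for KCNH2, 2.24 for TXNIP and -1.19 for MAT2A (limma adjusted p = 1 for each), so none of these genes is shown to differ between LNCaP and DU145.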

How the data were processed

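The authors deposited 1 linear intensity per probe set and array. MAS5 and affy are named in the submitters' processing notes, with neither version nor role, and their scaling target is not given in the sources used here. Each array was scaled here to a trimmed mean of 500 (2% off each end) and log2(intensity + 16) was taken. Of 54675 probe sets 27494 had 1 gene symbol and lay above the array median on at least 2 arrays, and the brightest probe set by mean stood for each of 14313 genes. Detection calls were not used.

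limma 3.58.1 in R 4.3.3 fitted the means of the 6 groups over all 10 arrays with an intensity trend (4 residual degrees of freedom), and p-values were adjusted by Benjamini-Hochberg over all genes. The script was tested on simulated data with the same noise for every gene and no effect of the array number. That checks the code and not the error rates on these arrays. The labels do not say what the replicate numbers share, but they were treated as pairing the arrays, since same-numbered PGK and EOS arrays deviated together from their group means, with r = 0.484 in LNCaP and 0.123 in DU145 across genes. A fit with the replicate block was therefore run too.

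Named genes were the 15 in each direction with the largest smaller-of-the-pairs difference, the same sign in both pairs and both arrays of the higher group above the array median. Up to 4 members per list in the direction of its median, up to 2 in the other, and 9 fixed genes were added. Other genes in the text, such as JUN, MYC, MX1, VIM and MKI67, were added as familiar members after their values were seen. The members and the 45 lists were chosen with earlier results of these data known, so list counts are descriptions and no set test was run. Promoter sequences are from RefSeq, and 34 of 38 tested hypoxia list members had a window.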

Additional observations from a re-analysis of the deposited data

How the results depend on the processing

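The limma count of 0 between EOS and PGK held with the replicate block, on unscaled values, after quantile normalization, with either other pseudocount (1 or 64), with no filter, with a filter on the LNCaP mean, with probe sets averaged, on the LNCaP arrays alone and without the ribavirin arrays. With 1 LNCaP array left out in turn it ranged from 0 to 4: without PGK 1 limma called BCHE, MAF and MET, and without EOS 1 it called HSD17B11, ITPRID2, MXRA7 and RTN2, with the lone array assumed to vary like the other groups. The count for the difference between the lines was 0 under each alternative run.

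The counts of genes at least 1 higher and lower in both pairs, 123 and 25, were 25 and 1 on unscaled values, 258 and 85 at pseudocount 1, 14 and 2 at pseudocount 64, 233 and 53 with no filter, 43 and 7 with a filter on the LNCaP mean, 497 and 132 with a limit of 0.58, 64 and 11 where the higher group lay above the array median, and 11 and 0 at a mean level of at least 8, a limit chosen after seeing the data. Quantile normalization gave 88 and 35 and averaged probe sets 101 and 23. A larger pseudocount damps dim genes by construction; the cause of the other shifts was not tested, and the size of differences near background is not determined.

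Of 2071 values of 150 named genes under the alternatives, 2029 kept the direction of the mean difference and 42, of 23 genes, turned. The cause was not tested. The share kept was in part fixed in advance. The replicate block, the LNCaP arrays alone and the fit without ribavirin arrays leave each mean difference and list median unchanged by construction. Most of these genes were also named for the same sign in both pairs, which a new pseudocount cannot turn. With 1 LNCaP array left out in turn the mean difference ran from -0.73 to 0.40 for CDKN1A, -0.20 to 0.15 for ENO1, -0.04 to 0.27 for FBL, -0.21 to 0.23 for GAPDH, -1.83 to 0.08 for H1-2, -0.10 to 0.65 for JUN, -0.16 to 0.37 for KLK3, -0.09 to 0.18 for LDHA, -0.07 to 5.37 for MAF, -0.19 to 0.46 for MKI67, -0.04 to 0.38 for MRPL11, -0.31 to 0.42 for MX1, -0.03 to 0.24 for MYC, -0.18 to 0.47 for NCAM1, -0.19 to 0.21 for NPM1, -0.72 to 0.51 for OASL, -2.70 to 0.39 for PLOD2, -1.001 to 0.12 for SLC2A1, -2.40 to 0.95 for SLC7A5, -0.08 to 0.29 for TPI1, -0.54 to 0.84 for UCHL1 and -0.62 to 1.23 for VIM. Averaging probe sets gave 0.04 for ENO1, 0.05 for CD44, -0.04 for NPM1, 0.29 for OASL and 0.03 for SLC2A1. Quantile normalization gave -0.06 for GAPDH, -0.01 for LDHA, -0.10 for MX1 and -0.04 for NPM1. Unscaled values gave 0.12 for OASL. The median of 16 of 45 gene lists turned under 1 or more alternatives, among them the androgen-responsive, pluripotency, DNA replication, keratin, tumour-initiating surface marker and fibroblast marker lists. It kept its sign for the other 29, which include hypoxia and glycolysis, ribosome production, class I presentation, interferon-stimulated and immediate early genes.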
